A study of Mus musculus with 8 samples.

Results

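Cirbp and Rbm3, the cold-inducible RNA-binding protein genes, were followed through every cell type of the mouse lung after chronic cigarette smoke (CS) or room air (RA). They are 2 of the 33027 genes in the deposited matrix. The pair was chosen from the AT2 cells of these same mice, because Cirbp was higher there in CS mice, so the AT2 values are given below as a description with no test. Hspa8, which encodes the constitutive chaperone HSC70, was set beside them in each mouse. Single-cell RNA sequencing covered 8 lungs, 4 from CS mice and 4 from RA mice. All 8 mice were C57BL/6 and carried Sftpc-CreERT2 and the mTmG reporter, in which Cre is driven by the promoter of an AT2 surfactant gene. All had received tamoxifen as young adults, and littermates were then randomised to CS or RA for months. The right lungs were taken the day after the last exposure, digested with warm collagenase and elastase and moved to ice-cold medium. Immune cells were then set back to a fixed small share of the suspension. The hour at which lungs were taken is not given in the sources used here.

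CIRBP and RBM3 are small proteins with a single RNA recognition motif followed by a glycine-rich tail. Both genes are induced when cells cool by a few degrees, while heat shock genes such as those of the HSP70 and HSP90 families respond to warming. In living animals Cirbp also follows the daily rhythm of body temperature, opposite in phase to heat-inducible chaperones, and CIRBP binds transcripts of the clock gene Clock. Temperature reaches both genes partly through splicing, by way of CLK kinases and SR proteins. When CIRBP leaves stressed cells it acts on neighbouring cells through TLR4 with MD-2 (Ly96) and through TREM-1. These are background facts and not results of the present data.

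Cirbp lies on chromosome 10 (GRCm38, GENCODE M21, chr10:80165985-80172786, plus strand) and overlaps no other annotated gene. Rbm3 lies on the X chromosome (chrX:8138975-8145880, minus strand), where its first part overlaps the antisense gene Rbm3os (chrX:8145429-8147964, plus strand), and whether reads were counted by strand is not given in the sources used here. Hspa8 lies on chromosome 9 (chr9:40800984-40810087, plus strand) and holds the small nucleolar RNA genes Snord14c, Snord14d and Snord14e. The stretch below shows how alike the members are. Among all pairs of in-frame 60-base stretches of the coding sequences of Cirbp-202 and Rbm3-201, bases 196 to 255 of each shared the most letters, 48 of 60 (80%). Capitals mark the shared bases, and each stretch crosses a splice junction, so its genomic span is longer than 60 bases.
Cirbp, chr10:80170108-80170246, plus strand: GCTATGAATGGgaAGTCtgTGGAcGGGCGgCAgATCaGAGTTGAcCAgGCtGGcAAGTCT
Rbm3, chrX:8143903-8144587, minus strand: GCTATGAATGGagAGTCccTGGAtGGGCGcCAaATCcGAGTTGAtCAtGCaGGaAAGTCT

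The Cirbp promoter is shown because the gene is known for the mild-cold response element TCCCCGCC. RefSeq windows of 300 bases around each start site (GRCm38.p6) held 2 starts of Cirbp. The first window held the element once, at chr10:80167592-80167599 on the plus strand, 239 bases before the start site. The second window did not hold it. Of 32851 such windows over the genome, 1768 (5.38%) held these letters on either strand. The E-box CACGTG, bound by clock factors and present in 7.15% of all windows, and GAANNTTC, a part of the heat shock element present in 7.86%, were in neither Cirbp window. These are matches of letters, and no binding was measured. The printed stretch is the part of the first window that lies before the first exons there, inside an intron of the longer transcript Cirbp-207, and capitals mark the element.
Cirbp promoter, chr10:80167589-80167777, plus strand: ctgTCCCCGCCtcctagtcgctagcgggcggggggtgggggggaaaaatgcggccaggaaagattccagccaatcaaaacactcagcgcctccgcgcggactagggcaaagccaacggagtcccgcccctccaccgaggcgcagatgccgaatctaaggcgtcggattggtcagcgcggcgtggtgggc

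The matrix held 41106 cells in the authors' annotation. After 1025 multiplets and 7 cells labelled as cycling were set aside, 40074 cells in 32 types were used, 20330 from CS and 19744 from RA mice. Libraries held 31882952 to 55485617 unique molecular identifiers (UMIs), with a median of 4254 to 6473 per cell. Levels are transcripts per 10,000, that is UMIs scaled to 10,000 in each cell and averaged over the cells of a mouse, and the mouse was the replicate. AT2 cells matched their label, with Sftpc at 1180 transcripts per 10,000 against 6.16 in the next type, club cells. Cell barcode sequences found in more than 1 library numbered 197, in 394 cells. The CS libraries stood against their sex labels. The CS mice labelled male, C2 and C5, held the female transcript Xist at 7.83 and 8.34, and those labelled female, D2 and D5, held the Y-linked Ddx3y at 0.925 and 1.08, while the RA libraries matched. All 4 CS libraries are concerned, so no comparison could be made without them, and each exposure group held 2 libraries with Xist and 2 with Ddx3y. A fit with the sex that these transcripts show was not made.

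AT2 cells, which make surfactant and renew the alveolar epithelium, held Cirbp in CS mice C2, C5, D2 and D5 at 0.913, 1.12, 1.23 and 0.991 transcripts per 10,000. In RA mice F1, F3, M1 and M3 the levels were 0.679, 0.757, 0.745 and 0.614. Every CS mouse thus lay above every RA mouse, with means of 1.06 ± 0.141 (SD, n = 4) and 0.699 ± 0.0659 (n = 4), a ratio of 1.52. On the scale used throughout, log2 of the level plus 1, the difference was 0.28. This scale shrinks the differences of low genes. Because this contrast chose the gene, 2.47% of the 9032 genes of AT2 cells that lay higher in all CS mice are given only as a background, from which nothing is read. Each of 4 sequencing lanes carried 1 library of each exposure, and the difference within lanes 1 to 4 was 0.19, 0.35, 0.28 and 0.30. These levels rest on 52.8 to 484 Cirbp UMIs per mouse in 71 to 559 AT2 cells.

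Rbm3, a lower gene, gave a smaller difference in AT2 cells on the log2 scale used here. Its levels were 0.168, 0.107, 0.131 and 0.183 in CS mice C2, C5, D2 and D5 and 0.0868, 0.101, 0.0753 and 0.133 in RA mice F1, F3, M1 and M3. The groups overlapped, since RA mouse M3 lay above CS mice C5 and D2. The means were 0.147 ± 0.0343 and 0.0992 ± 0.0252 (SD, n = 4 each), with a log2 difference of 0.06. The ratio of these means, 1.49, was close to the 1.52 of Cirbp. Hspa8 lay the other way in the same cells. Its levels were 5.51, 6.06, 6.32 and 5.96 in the CS mice and 7.92, 8.49, 11.9 and 11.8 in the RA mice, all CS mice below all RA mice, with a log2 difference of -0.65. Of all genes of AT2 cells, 2.1% lay lower in all CS mice.

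RNA of other cells in the AT2 droplets was measured beside these values. The summed level of 5 endothelial markers was 2.39 to 5.07 in CS and 1.86 to 6.87 in RA mice, that of 5 fibroblast markers 0.151 to 0.242 against 0.104 to 0.382, and that of 5 immune markers 0.0690 to 0.398 against 0.302 to 0.554. The 3 club cell markers, led by Scgb1a1, summed to 27.2 to 69.2 against 33.0 to 84.3. Each of these ranges overlapped between the groups. In the 1496 of 1881 AT2 cells that held Sftpc and no transcript of the endothelial genes Ramp2 or Cldn5, Cirbp differed by 0.32 on the log2 scale (means 1.05 and 0.647), again with no overlap. These are most of the cells whose contrast chose the gene, so this value is a description and lends no weight. The part of RNA from other cells in the AT2 differences was not tested.

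**Figure D1:**
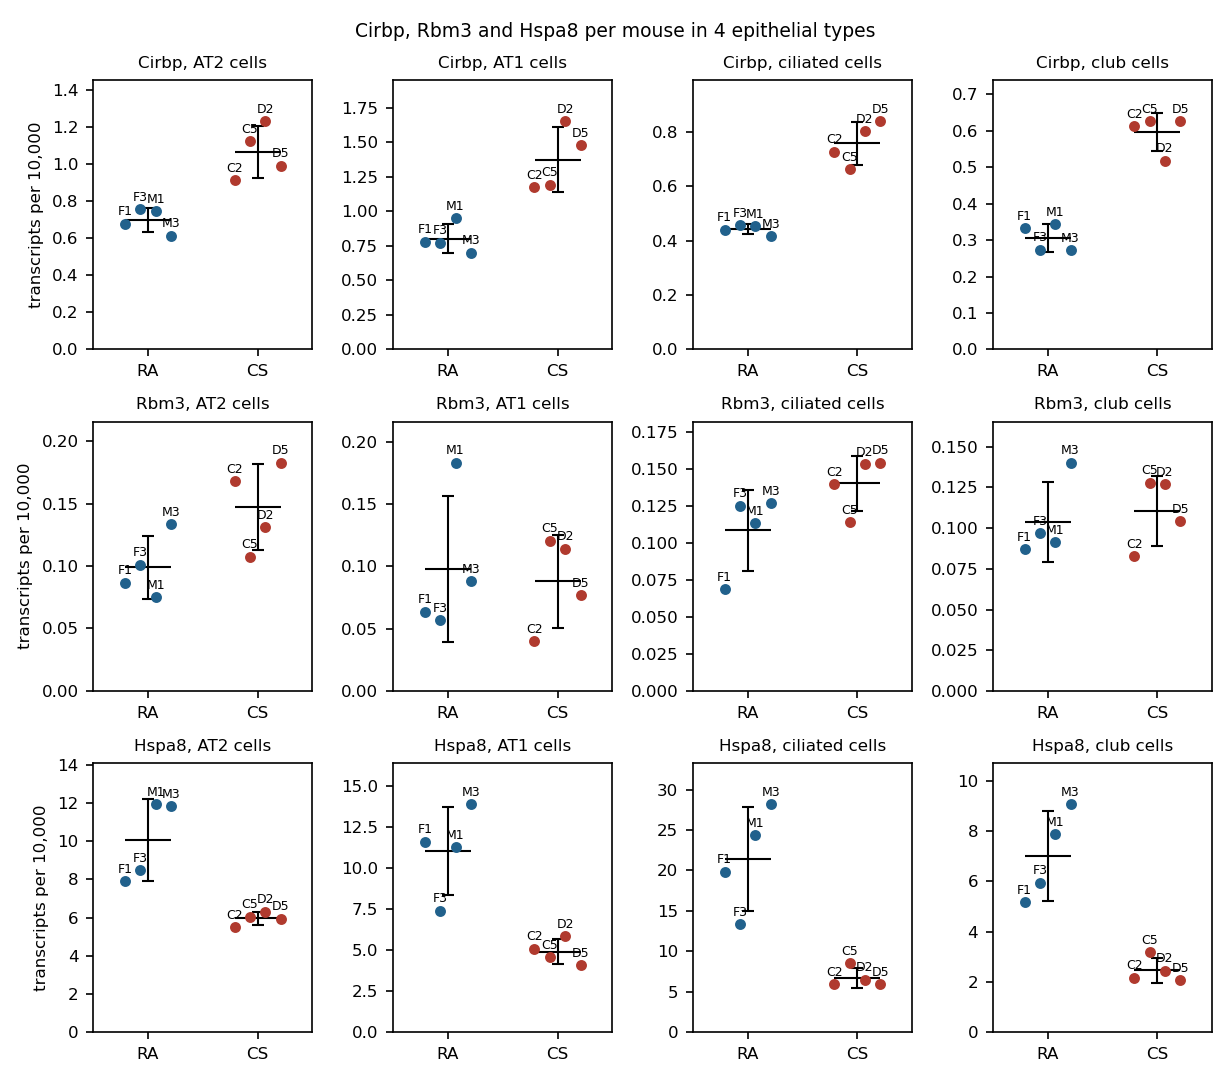
Levels of Cirbp (top), Rbm3 (middle) and Hspa8 (bottom) in transcripts per 10,000 in AT2, AT1, ciliated and club cells. Each point is 1 mouse, named beside it (RA blue, CS red), and lines give the mean and SD of 4 mice; Cirbp of every CS mouse lies above, and Hspa8 below, every RA mouse in all 4 types, while Rbm3 overlaps.

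The rule that chose the members used AT2 cells and not the other cell types, although earlier results of these data were known by then. In the other types Cirbp was higher in CS mice in AT1, ciliated and club cells, and it was called lower in no type. The test was limma over all genes of a type with Benjamini-Hochberg adjustment, and a call is an adjusted p under 0.05. Of 21 types tested, 3 were called higher (0.751% of all gene-by-type tests in these 21 types were called higher and 0.546% lower). The difference lay above 0 in 18 of 21 types, with a median of 0.19, and its unadjusted p was under 0.05 in 10 types, against 15.7% of all tests. All CS mice lay above all RA mice in 7 of 21 types, against 6.2% of all tests. The same 8 mice enter every type, so the types are not independent of each other or of the AT2 cells that chose Cirbp.

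AT1 cells, the thin gas-exchange cells that arise from AT2 cells, held Cirbp at 1.17, 1.19, 1.65 and 1.48 in CS mice C2, C5, D2 and D5 and at 0.781, 0.774, 0.949 and 0.701 in RA mice F1, F3, M1 and M3. The groups did not overlap, and the means were 1.37 ± 0.233 and 0.801 ± 0.105 (SD, n = 4 each), a ratio of 1.72. The log2 difference was 0.40 (SE 0.08, limma adjusted p = 0.0145). In AT1 cells 1.39% of 8873 genes were called higher and 0.992% lower. The call was lost without CS mouse D2, the highest mouse (0.34, adjusted p = 0.0519).

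Ciliated cells, which move mucus along the airway, held Cirbp at 0.728, 0.662, 0.802 and 0.840 in the CS mice and at 0.440, 0.458, 0.453 and 0.416 in the RA mice. The RA mice lay close together, and the lowest CS mouse, C5, was above all of them. The log2 difference was 0.28 (SE 0.04, limma adjusted p = 0.0037, ratio 1.72), in a type where 2.72% of 11077 genes were called higher and 1.91% lower. Leaving out any 1 mouse kept the call, with adjusted p from 0.0037 to 0.0192.

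Club cells, the secretory cells of the small airways, held Cirbp at 0.612, 0.627, 0.518 and 0.626 in the CS mice and at 0.333, 0.274, 0.343 and 0.273 in the RA mice. The groups again did not overlap, with a log2 difference of 0.29 (SE 0.04, limma adjusted p = 0.0234, ratio 1.95). Here only 0.0778% of 11575 genes were called higher and 0.121% lower. The call was lost without any one of C2, C5, D5, F3, M1 or M3 (adjusted p from 0.0579 to 0.0899).

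All 3 calls were lost under thinning, and those in AT1 and club cells also with other genes tested. After each cell was thinned to 2000 UMIs, which left 37222 of 40074 cells and Cirbp tested in 18 types, no call remained, with log2 differences of 0.35 in AT1 cells (limma adjusted p = 0.214), 0.34 in ciliated cells (adjusted p = 0.0504) and 0.34 in club cells (adjusted p = 0.173). With no filter on rarely detected genes, the call in ciliated cells remained (adjusted p = 0.0273) and those in AT1 and club cells were lost (adjusted p = 0.114 and 0.205). The direction held in each. Markers of the cells themselves were measured beside these calls. The summed level of 4 AT1 markers in AT1 cells was 236.8 to 278.5 in CS and 278.9 to 322.5 in RA mice, so that all CS mice lay lower, while the 2 ciliated markers in ciliated cells (28.9 to 31.3 against 27.5 to 31.3) and the 3 club markers in club cells (3738 to 4312 against 3785 to 4559) overlapped. AT2 markers in ciliated cells summed to 1.57 to 3.40 in CS and 1.05 to 1.45 in RA mice, higher in all CS mice, and overlapped in AT1 and club cells. Their part in the Cirbp differences was not tested.

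Goblet cells, which secrete mucins, had Cirbp at 0.499, 0.389, 0.521 and 0.494 in CS mice and 0.220, 0.214, 0.226 and 0.186 in RA mice. The groups did not overlap, but the difference of 0.28 missed the threshold (limma adjusted p = 0.0627). The other types without overlap were adventitial fibroblasts (0.19, adjusted p = 0.195), neutrophil granulocytes (0.33, adjusted p = 0.208) and cells labelled mast cells (0.51, adjusted p = 0.536), of which the last had 3 RA mice. Arterial endothelial cells, with 0.37 (adjusted p = 0.164), aerocytes, the capillary cells of gas exchange, with 0.25 (adjusted p = 0.158), and classical monocytes, with 0.30 (adjusted p = 0.325), also had differences above 0 that missed it. The lowest differences were found in lymphatic endothelial cells (-0.11), NK and cytotoxic T cells (-0.08) and B cells (-0.06), none of which passed. Over the 17 types with at least 20 cells in every mouse, Cirbp was higher in CS mice in all 4 lanes in 10 types, of which AT2 cells are 1 and were chosen for it, and lower in all 4 lanes in none. Types without overlap are higher in all 4 lanes by necessity. The share of all genes that were so was not computed, so the lane count adds no weight.

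**Figure D2:**
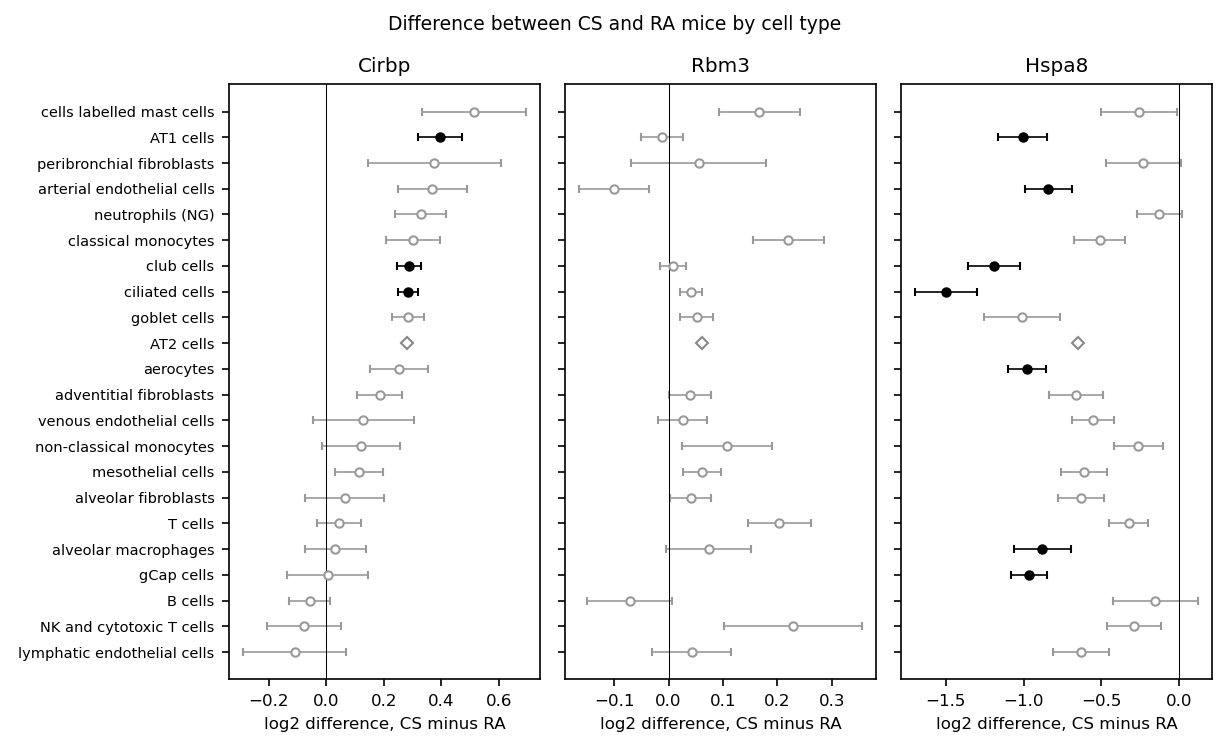
Difference between CS and RA mice in each of 22 cell types for Cirbp, Rbm3 and Hspa8, as log2 of the level plus 1. Circles give the limma estimate with its SE (filled black where the adjusted p was under 0.05), the diamonds give the AT2 differences, which were not tested, and missing points are types in which Rbm3 was found in too few cells; Cirbp lies above 0 in 18 of the 21 other types and Hspa8 below 0 in all 21.

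General capillary cells (gCap), the most numerous type in the data, showed no such difference. Their Cirbp levels were 1.62, 1.86, 1.44 and 1.12 in CS mice C2, C5, D2 and D5 and 2.03, 1.83, 1.27 and 0.962 in RA mice F1, F3, M1 and M3. The 3 gCap markers summed to 23.5 to 28.2 in CS and 30.3 to 33.3 in RA mice, lower in all CS mice, and the part of this in the differences of gCap cells given here was not tested. For Cirbp the RA range enclosed the CS range, and the log2 difference was 0.0047 with an SE of 0.14 (limma adjusted p = 0.98), in a type where 6.28% of 6556 genes were called higher and 3.97% lower. Whether another type differed from gCap cells in its response was tested on the difference itself, by an exact two-sided permutation test over the 8 mice. None of 15 types passed for Cirbp or for Rbm3 after adjustment over the 30 comparisons. For Cirbp in AT1 cells the difference of differences was 0.39 (exact permutation p = 0.171, adjusted p = 0.514), and the smallest p for Cirbp was 0.114, in neutrophil granulocytes. For Rbm3 it was 0.0286, in T cells, with a difference of differences of 0.19 (adjusted p = 0.514). The smallest p that 4 against 4 mice allow is 0.0286, so a single type at that p could not pass the adjustment over 30 comparisons. The response of AT1, ciliated and club cells was therefore not shown to differ from that of gCap cells.

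In endothelial cells the spread within each group was wide. Venous endothelial cells held Cirbp at 1.95, 2.01, 1.27 and 0.994 in the CS mice and 1.91, 1.78, 0.960 and 0.774 in the RA mice. In both gCap and venous cells the 4 highest mice were C2, C5, F1 and F3, whichever the exposure. These are the 4 libraries that hold Xist, and the part of sex in these levels was not tested. By the sex labels, both mice labelled male lay above both labelled female in CS and the reverse held in RA, a pattern found in 4.77% of the genes of gCap cells and 5.36% of those of venous cells. Lymphatic endothelial cells ranged from 0.705 in CS mouse D2 to 2.32 in RA mouse F1.

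**Figure D3:**
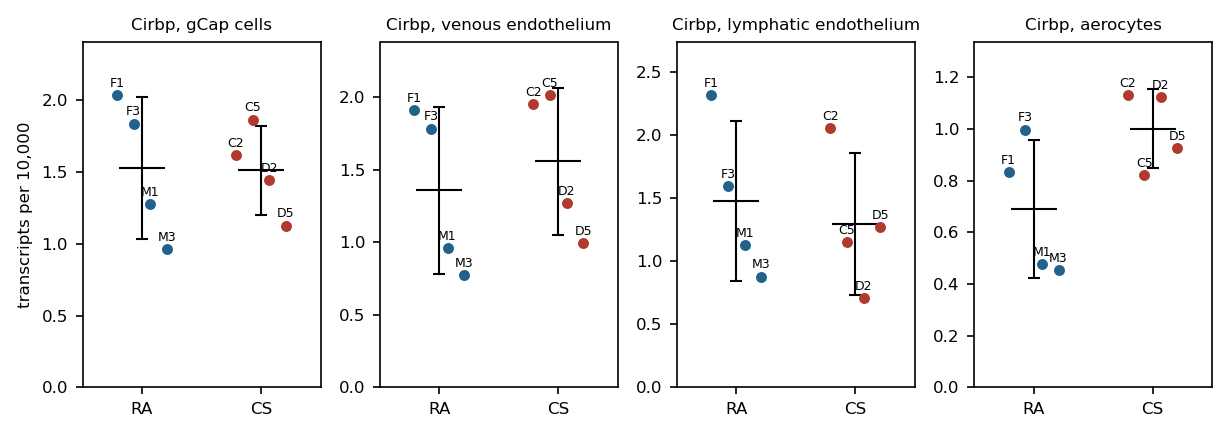
Cirbp in 4 endothelial types, in transcripts per 10,000, for each RA (blue) and CS (red) mouse, with the mean and SD of 4 mice. In gCap and venous cells mice C2, C5, F1 and F3 are the 4 highest, and the means of CS and RA lie close together.

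Rbm3 was called in none of the 18 types in which it could be tested with limma, at this depth. Its unadjusted p was under 0.05 in 3 of these 18 types, near the 15.7% of all tests. It was found in too few cells to enter the test in gCap cells, aerocytes and neutrophil granulocytes. The difference was above 0 in 15 of 18 types, with a median of 0.05. All CS mice lay above all RA mice in 2 of 18 types, T cells and classical monocytes, beside 6.2% of all tests. In T cells the levels were 0.491, 0.285, 0.422 and 0.439 in CS mice C2, C5, D2 and D5 and 0.152, 0.205, 0.273 and 0.260 in RA mice F1, F3, M1 and M3, with a log2 difference of 0.20 (SE 0.06, limma adjusted p = 0.146). In classical monocytes they were 0.324, 0.474, 0.287 and 0.415 against 0.167, 0.205, 0.245 and 0.103, with a difference of 0.22 (SE 0.07, limma adjusted p = 0.325). Cirbp in T cells differed by 0.04 (adjusted p = 0.758). In the epithelial types where Cirbp was called, Rbm3 differed by -0.01 in AT1 cells (SE 0.04), by 0.04 in ciliated cells (SE 0.02) and by 0.0087 in club cells (SE 0.02), none past the threshold. Its level in AT1 cells rests on 102 UMIs over all 8 mice, so small changes there were not detectable.

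Hspa8 fell in CS mice in 7 of 21 types and rose in none, against the 0.546% of tests called lower. Its difference was below 0 in all 21 types, with a median of -0.63. In ciliated cells the levels were 5.92, 8.58, 6.53 and 5.94 in CS mice C2, C5, D2 and D5 and 19.8, 13.3, 24.4 and 28.2 in RA mice F1, F3, M1 and M3, with a difference of -1.50 (SE 0.20, limma adjusted p = 0.0050). This was the lowest difference among the 21 types tested. In ciliated cells the RA mice labelled male, M1 and M3, averaged 26.3 and those labelled female, F1 and F3, averaged 16.6. In gCap cells these means were 9.31 and 8.79. M1 and M3 were in lanes 3 and 4, F1 and F3 in lanes 1 and 2. The part of sex in the Hspa8 levels was not tested. In club cells, where the levels ran from 2.08 to 3.18 against 5.17 to 9.08, the difference was -1.19 (adjusted p = 0.0220), and in AT1 cells it was -1.01 (adjusted p = 0.0026). The 4 remaining calls were aerocytes (-0.98), gCap cells (-0.96), alveolar macrophages (-0.88) and arterial endothelial cells (-0.84). The calls in ciliated cells, AT1 cells and aerocytes held without any 1 mouse. That in gCap cells was lost without D5 (limma adjusted p = 0.0568) and with the sequencing lane as a block (adjusted p = 0.0646). The call in club cells was lost without any one of C2, D2, D5 or M1 (adjusted p up to 0.0864), that in arterial cells without C2, C5 or D5 (up to 0.0889) and that in alveolar macrophages without C2, C5, D2, M1 or M3 (up to 0.137). After thinning to 2000 UMIs the alveolar macrophage call was lost as well, and with no filter on genes the ciliated call alone remained. Cirbp and Hspa8 thus moved in opposite directions in AT1, ciliated and club cells. In gCap cells the Hspa8 difference of -0.96 stood beside a Cirbp difference near 0 with a wide SE of 0.14. No type tested was shown to differ from gCap cells in its Cirbp response. Both genes were measured in the same mice against the same controls.

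The levels of the members had a different order across the 17 types with at least 20 cells in every mouse, to which this order is limited. Among them Cirbp was highest in alveolar fibroblasts, at 1.89 ± 0.455 (SD, n = 8 mice), followed by gCap cells at 1.52, venous endothelial cells at 1.46, adventitial fibroblasts at 1.45 and lymphatic endothelial cells at 1.39. AT1 cells were at 1.09, arterial endothelial cells at 0.948, AT2 cells at 0.882 and aerocytes at 0.845. B cells (0.723), T cells (0.719), ciliated cells (0.600), neutrophil granulocytes (0.532), club cells (0.451), classical monocytes (0.423), alveolar macrophages (0.353) and goblet cells (0.344 ± 0.147) closed the order. Outside these types, peribronchial fibroblasts averaged 1.97 ± 0.761 over the 6 mice with enough cells. None of the 16 pairs of neighbours was told apart by the test paired within mice (smallest exact sign-flip permutation p = 0.109, adjusted p = 0.656).

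Among the same 17 types Rbm3 was highest in B cells (0.317 ± 0.113) and T cells (0.316), followed by classical monocytes (0.278), alveolar macrophages (0.228), adventitial fibroblasts (0.222) and alveolar fibroblasts (0.207). Endothelial types lay between 0.144 in aerocytes and 0.199 in venous cells. Neutrophil granulocytes were at 0.130, and the epithelial types came last, with ciliated cells at 0.124, AT2 cells at 0.123, club cells at 0.107, AT1 cells at 0.0929 and goblet cells at 0.0647. Outside the 17 types, NK and cytotoxic T cells averaged 0.400 ± 0.229 and cells labelled mast cells 0.329 ± 0.110 over 7 mice each. Again none of the 16 neighbours differed (smallest exact sign-flip permutation p = 0.195). The levels of a gene are compared here between cell types only, and not between genes.

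**Figure D4:**
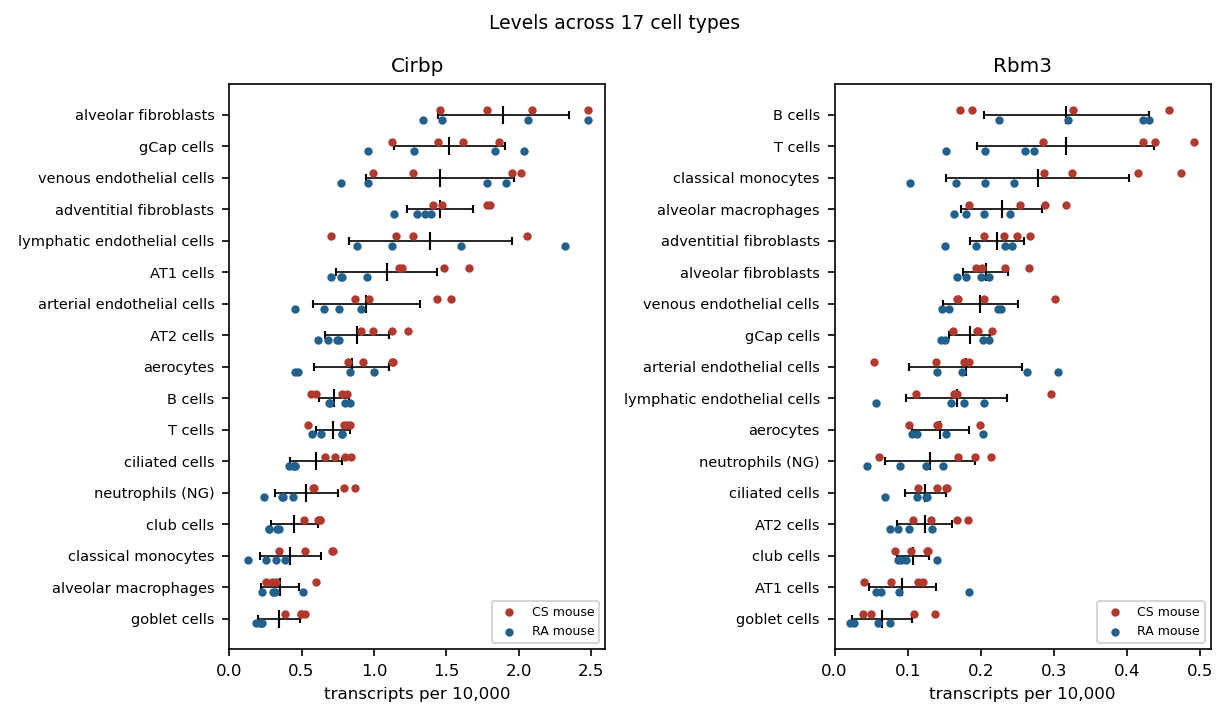
Levels of Cirbp (left) and Rbm3 (right) in transcripts per 10,000 in the 17 cell types with at least 20 cells in every mouse, ordered by the mean. Points are mice (CS red, RA blue) and black lines the mean and SD of 8 mice; stromal and endothelial types lead for Cirbp, while B and T cells lead and epithelial types close the order for Rbm3.

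Grouped into compartments, most of the differences paired within mice were told apart from 0, although levels of some compartments overlapped between mice. Cirbp averaged 1.67 ± 0.275 in stromal, 1.23 ± 0.318 in endothelial, 0.721 ± 0.0808 in lymphoid, 0.673 ± 0.202 in epithelial and 0.436 ± 0.155 in myeloid types (SD, n = 8 mice). Of 10 pairs of compartments, 9 differed by the exact two-sided sign-flip permutation test, 8 of them at an adjusted p of 0.0112 that corresponds to the smallest p 8 mice allow (0.0078), and stromal against endothelial at 0.0208. Epithelial and lymphoid types were not told apart (exact permutation adjusted p = 0.559). In RA mice the epithelial mean was 0.492 ± 0.0430 and the lymphoid 0.724 ± 0.0164, and in CS mice they were 0.854 ± 0.0758 and 0.718 ± 0.122. AT2 cells, whose exposure difference chose the gene, are among the 5 epithelial types, and these values by exposure were not tested. Rbm3 averaged 0.316 ± 0.0826 in lymphoid, 0.214 ± 0.0273 in stromal, 0.212 ± 0.0588 in myeloid, 0.175 ± 0.0285 in endothelial and 0.102 ± 0.0208 in epithelial types. The epithelial mean lay below that of every other compartment in 8 of 8 mice (exact permutation adjusted p = 0.0112 for each of 4 pairs). In all, 8 of 10 pairs passed, all but endothelial against myeloid (0.191) and stromal against myeloid (0.883). With summed UMIs, after thinning or when 1 mouse was left out, 6 to 7 passed. The pairs lost were endothelial against stromal and myeloid against lymphoid. By exposure, the CS mice had a myeloid mean of Rbm3 of 0.265 ± 0.0144 and the RA mice one of 0.160 ± 0.0221 (n = 4), while the endothelial means were 0.174 ± 0.0348 and 0.176 ± 0.0260, given as values with no test.

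The genes whose level over the 17 types was most like that of Cirbp, among 4384 with a mean of at least 0.5, were the matrix protease gene Adamts9 (Pearson r = 0.90), Ing1 (0.90), Desi1 (0.89), Ccdc186 (0.88) and the cytoskeletal linker gene Macf1 (0.88). For Rbm3 they were Mycbp2 (0.93), the RNA helicase gene Ddx21 (0.92), Ube2k (0.91), Tob2 (0.90) and Ptp4a2 (0.90), of 4385 compared. The members were little alike. Over the 17 types Cirbp and Rbm3 had r = 0.11, which ranked Cirbp 2498th for Rbm3. Hspa8 had r = 0.10 with Cirbp (rank 2491) and 0.35 with Rbm3 (rank 1648). The types share the 8 libraries, so these values are descriptions.

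Genes of a list of heat-inducible chaperones were counted in the types where Cirbp was called and in gCap cells. The list also holds Hsf1, which does not encode a chaperone, and the constitutive Hspa8, so each count below includes the Hspa8 call given above. The list's name is a label only, and which of its genes are induced by heat was not assessed. Of 22 genes, 10 fell in AT1 cells, 13 in ciliated cells, 3 in club cells and 10 in gCap cells, and none rose in these 4 types. Over all genes of these types the share called lower was 0.992%, 1.91%, 0.121% and 3.97% in the same order. The list's median log2 difference was -0.25, -0.71, -0.33 and -0.25 in that order, beside medians over all genes between 0.00040 and 0.0094. In AT1 cells the largest falls next to Hspa8 were those of the small heat shock gene Hspb1, from 5.21 to 2.19 transcripts per 10,000 (log2 difference -0.93, limma adjusted p = 0.0053), and of the HSP90 gene Hsp90ab1, from 19.0 to 9.75 (-0.89, adjusted p = 0.0026). The others called there were Dnaja1, Fkbp4, Hspa4l, Cacybp, Ahsa1, Stip1 and Chordc1. In ciliated cells Hsp90aa1 fell from 51.6 to 21.4 (-1.21, adjusted p = 0.0050), and the mitochondrial chaperonin genes Hspe1 (-1.15, adjusted p = 0.0262) and Hspd1 (-0.95, adjusted p = 0.0097) fell too. In club cells the calls were Hspa8, Fkbp4 (-0.48) and Hspd1 (-0.48). In gCap cells Hspb1 (-1.42, adjusted p = 0.0268) and Hsp90ab1 (-1.11, adjusted p = 0.0113) led. In AT2 cells, where no test was made, 5 of 22 lay lower in all CS mice (2.1% of all AT2 genes did) and none higher, with a median of -0.11, and the summed level was 37.3 to 51.5 in CS and 47.8 to 61.3 in RA mice.

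Clock genes were counted because Cirbp is a rhythmic gene. Of 18 genes listed, 17 were in the matrix, and those found in enough cells to be tested numbered 13 in AT1, 15 in ciliated, 16 in club and 11 in gCap cells. Of these, 4, 2, 1 and 4 were called higher, in types where 1.39%, 2.72%, 0.0778% and 6.28% of all genes were. In AT1 cells the D-box factor Dbp rose from 0.217 to 1.22 transcripts per 10,000 (log2 difference 0.86, limma adjusted p = 0.00076), as did Nr1d1, the REV-ERB alpha gene (0.65, adjusted p = 0.0203), Bhlhe40 (0.33) and Bhlhe41 (0.31), while the activator gene Arntl (BMAL1) fell from 0.176 to 0.0404 (-0.18, adjusted p = 0.0294). In ciliated cells Rora (0.57, adjusted p = 0.0194) and Per2 (0.20) rose and Nfil3 (-0.12) fell. Over all genes, 0.992% were called lower in AT1 and 1.91% in ciliated cells. In club cells Dbp alone was called (0.51, adjusted p = 0.0170). In gCap cells Dbp (0.87, adjusted p = 0.0346), Nr1d1 (0.60), Nr1d2 (0.42) and Tef (0.40) rose, beside a Cirbp difference near 0 with a wide SE of 0.14. In AT2 cells Dbp was at 1.58 ± 0.526 in CS and 0.741 ± 0.356 in RA mice, with overlap, and of 16 list genes Bhlhe41 alone lay higher in all CS mice, beside 2.47% of all AT2 genes. The summed level of the listed clock genes was higher in all CS mice in AT1 cells (11.3 to 13.7 against 9.10 to 10.9), ciliated cells (11.6 to 12.7 against 7.79 to 10.7), club cells (10.1 to 12.1 against 5.95 to 9.01) and gCap cells (13.4 to 16.8 against 7.66 to 11.01), and overlapped in AT2 cells (8.55 to 10.7 against 6.00 to 8.87). The list mixes genes that rose with genes that fell, so the sum is no measure of clock phase. In AT1 cells 8 of the 13 genes tested had differences above 0, with a median of 0.07. The time of day of sampling cannot be told apart from exposure with these labels.

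**Figure D5:**
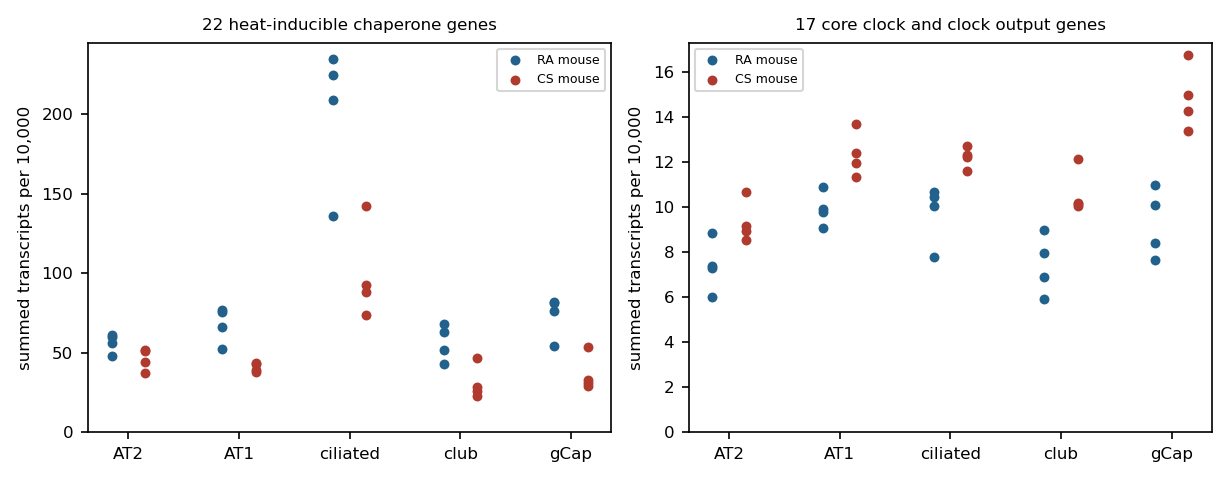
Summed level in transcripts per 10,000 of the 22 genes of the heat-inducible chaperone list (left) and of 17 clock genes (right) in 5 cell types, with a point for each RA (blue) and CS (red) mouse. The clock sum is higher in all CS mice in AT1, ciliated, club and gCap cells, and the chaperone sum is lower in all CS mice in AT1 and gCap cells.

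Genes of the splicing route were counted next, in ciliated cells beside 2.72% of all genes called higher and 1.91% lower, and in gCap cells beside 6.28% and 3.97%. Of 16 CLK kinase and SR protein genes, none was called in AT1 or club cells, Srsf7 fell in ciliated cells (-0.25, limma adjusted p = 0.0467), and Srsf3 (-0.27, adjusted p = 0.0474) and Srsf7 (-0.36, adjusted p = 0.0405) fell in gCap cells. The summed level of the 16 genes in gCap cells was lower in all CS mice (28.7 to 31.1 against 31.9 to 38.4), and it overlapped in AT2, AT1, ciliated and club cells. In gCap cells 5 of the 16 genes had differences above 0. In AT2 cells the most abundant of them were Tra2a (2.87 in CS and 2.996 in RA mice) and Srsf2 (2.77 and 2.58). Of 8 related genes with an RNA recognition motif, Hnrnpa1 rose in ciliated cells (0.16, adjusted p = 0.0311), and none was called in AT1, club or gCap cells. In gCap cells the differences of all 8 were below 0 and their sum was lower in all CS mice (10.98 to 12.4 against 12.6 to 16.3), while the sums overlapped in the 4 epithelial types. In AT2 cells Hnrnpa1 lay higher in all CS mice (1.67 ± 0.186 against 1.36 ± 0.0564), as did Hnrnpdl, beside 2.47% of all AT2 genes. The most abundant of the 8 in AT2 cells were Hnrnpa2b1 (3.02 and 2.91) and Hnrnpa3 (1.99 and 1.81). None of 10 stress granule genes and none of 5 reported RNA partners of CIRBP, of which 4 or 5 were tested, was called in these 4 types. In AT1 cells both sums were higher in all CS mice, at 11.3 to 12.5 against 10.6 to 10.9 for the stress granule genes and 7.54 to 8.15 against 6.65 to 7.41 for the RNA partners, and both overlapped in the other 4 types. Singly, 1 of 10 stress granule genes and 1 of 4 RNA partners tested did so in AT1 cells, beside 6.2% of all tests in 21 types. No background share was computed for list sums, so the separation of any sum given in this report carries no weight. In AT2 cells the stress granule gene Ddx3x was at 2.72 in CS and 2.55 in RA mice, and the most abundant of the RNA partners were Txn1 (6.73 and 6.18) and Rtn3 (1.65 and 1.82). Clock itself was at 0.337 in CS and 0.429 in RA mice in AT2 cells.

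Of the receptor genes for CIRBP outside the cell, Il6ra, proposed as a receptor for the released protein, fell in AT1 cells from 1.93 to 0.993 transcripts per 10,000 (-0.55, limma adjusted p = 0.0026). Tlr4 rose in ciliated cells from 0.0453 to 0.0853 (0.05, adjusted p = 0.0194), a level near the floor of the assay. Of the 4 receptor genes, those found in enough cells numbered 2 in AT1, 2 in ciliated, 3 in club and 1 in gCap cells, and none was called in the last 2 types. Over all genes, 0.992% were called lower in AT1 and 2.72% higher in ciliated cells. In AT2 cells Tlr4 was at 0.392 in CS and 0.311 in RA mice.

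Genes that respond to tissue digestion were measured beside these results, since warm digestion precedes every value. In AT2 cells their summed level was 43.9 to 59.6 in CS and 47.8 to 51.2 in RA mice, and in AT1 cells 32.7 to 41.4 against 36.5 to 48.2, with overlap in both. In club cells it was 19.6 to 38.4 against 16.6 to 44.6, also with overlap, and none of 12 genes was called. In ciliated cells it was 54.7 to 105.5 against 94.3 to 136.4, where CS mouse C5 alone lay within the RA range, and all 12 differences were below 0 with a median of -0.57 beside 0.0064 over all genes. In gCap cells it was lower in all CS mice (57.4 to 85.6 against 100.1 to 154.6), and 6 of 12 genes fell, Atf3 (-1.01, limma adjusted p = 0.0422), Junb, Ier3, Jund, Dusp1 and Jun. In AT1 cells Dusp1 fell (-0.72, adjusted p = 0.0319), and in ciliated cells Fos (-0.70) and Ier2 (-0.69) fell. Over all genes the share called lower was 3.97% in gCap, 0.992% in AT1 and 1.91% in ciliated cells. The part of handling in the levels of Cirbp, Rbm3 and Hspa8 was not tested.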

How the data were processed

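Lungs of 4 CS and 4 RA mice were measured by 3′ single-cell RNA sequencing (10x v3), 1 library per mouse, with groups taken from the exposure label. Per the labels and the study's methods, the authors aligned reads to GRCm38.p6 with STAR 2.7.3a (STARsolo, in the submitters' processing notes), removed low-quality barcodes and subtracted free RNA with SoupX. The deposited matrix holds the resulting expected counts (UMIs after that correction, of which 1.28% are whole numbers), and the deposited cell table holds the authors' cell types and the mitochondrial percent of each cell, above 5% in 1574 of the cells used. The label NG was read as neutrophil granulocytes, and its cells held S100a8 at 288.0 transcripts per 10,000.

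Multiplets and cycling cells were left out and no further doublet caller was run. UMIs were scaled to 10,000 per cell and averaged per mouse and type. A mouse entered with at least 20 cells, a type with at least 3 mice per group, and a gene if found in 10% of the cells of either group. Log2(mean + 1) was tested with limma 3.58.1 (lmFit, eBayes with trend, R 4.3.3), Benjamini-Hochberg over all genes of a type. The fit was run on simulated gCap values with independent genes and planted changes larger than those of the Cirbp calls. That run therefore does not cover the Cirbp calls. Peribronchial fibroblasts had 3 mice in each group, mast-labelled, NK and cytotoxic T cells and non-classical monocytes had 3 RA mice, and mesothelial cells had 3 CS mice. Levels were compared between types by exact sign-flip permutation within mice. The study's test over single cells was not used, because cells of 1 mouse are not replicates. The members and gene lists were chosen with earlier results of these data known. Named genes are the members, Hspa8, the list genes called in the type described (otherwise the 2 most abundant in AT2 cells) and the 5 most alike. Other genes are named as values only. The level of 1 list gene that this rule would name is not reported here. Positions are from GENCODE M21 and promoter windows from RefSeq. RNA per cell and the share of cells with RNA were not separated.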

Additional observations from a re-analysis of the deposited data

Results flagged for a closer look

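Of 114 groups of 4 mice checked, 4 had a mouse far from the other 3, and chance gives about 1 in 20. Cirbp was lowest in CS mouse D2 in club cells (0.518, the others 0.612 to 0.627) and in CS mouse C5 in T cells (0.544, the others 0.793 to 0.835). It was highest in CS mouse C2 in cells labelled mast cells (2.51, the others 1.06 to 1.30). Hspa8 was lowest in CS mouse D5 in goblet cells (2.20, the others 3.36 to 3.53).

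Mice with the same sex label moved opposite ways in the CS and RA groups in 4 cases, and these differences were not tested. The labelled female minus male difference of Cirbp in gCap cells was -0.456 transcripts per 10,000 in CS and 0.815 in RA mice, and in venous endothelial cells -0.851 and 0.979. That of Hspa8 in adventitial fibroblasts was 1.503 in CS and -3.97 in RA mice, and that of Rbm3 in neutrophil granulocytes 0.0881 and -0.0700. In the CS mice Xist and Ddx3y go against the sex labels. Sorted by these transcripts instead, the Xist libraries lay on the same side in CS and RA mice in all 4 cases. This follows by necessity, and nothing is read from it. The 4 cases were picked for opposite sides by label, and these transcripts invert the label of every CS library. The share of all genes with the pattern of the Hspa8 and Rbm3 cases was not computed.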

How the results depend on the processing

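The call of Cirbp in AT1, ciliated and club cells (3 types) became 1 type with no filter on genes and 0 after thinning to 2000 UMIs, and 2 to 4 types without single mice. Goblet cells were added with a 25% filter, with summed UMIs and without RA mouse F1. Rbm3 had 0 calls under every alternative run, and after thinning no type could be tested for it. The 7 calls of Hspa8 became 1 with no filter, 6 after thinning, 4 without CS mouse C2 or CS mouse D5, and 4 to 8 over all mice left out. With the sequencing lane as a block the 3 Cirbp calls were kept and Hspa8 lost gCap cells (adjusted p = 0.0646). In AT2 cells pseudocounts of 0.1 and 0.5 gave 0.54 and 0.38 for Cirbp and 0.31 and 0.11 for Rbm3. Without single mice the AT2 difference was 0.24 to 0.32 for Cirbp, 0.05 to 0.08 for Rbm3 and -0.74 to -0.56 for Hspa8. Differences between compartments turned in sign for Cirbp epithelial minus lymphoid within CS mice (0.136), for Rbm3 endothelial minus myeloid within RA mice (0.0163) and for Rbm3 stromal minus myeloid with summed UMIs (-0.0222), after thinning (-0.0181), within CS mice (-0.0340) and without single mice (-0.00881 to 0.00935), none of them called. The cause of these changes was not tested. The comparison with gCap cells had 0 calls in every setting, including thinning, an alternative chosen after seeing the data, but its smallest p leaves a call nearly out of reach, so this says nothing of stability. The replicate numbers only follow the order of deposit, so the lane was the sole pairing of mice and its block the paired fit. AT2 levels of Rbm3 rest on 13.9 to 68.8 UMIs per mouse, which limits what could be seen.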

Other observations

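Cirbp was also read in cell types with too few cells to test. In basal cells, the progenitors of the airway lining, it was at 2.59, 1.81, 1.13 and 1.33 transcripts per 10,000 in CS mice C2, C5, D2 and D5 and at 1.11, 0.529, 0.640 and 0.325 in RA mice F1, F3, M1 and M3. In smooth muscle cells it was at 1.84, 1.86, 2.09 and 1.89 against 1.61, 0.899, 0.775 and 0.527. In pulmonary neuroendocrine cells it was at 2.20, 2.38, 2.67 and 1.61 against 1.21, 1.51, 1.25 and 0.622. The share of all genes that separate the mice was not computed in such small types, so no weight can be given to the separation of Cirbp in these 3 types and in cDC1, where RA mouse F1 had no cells. The groups overlapped in the remaining untested types, which are pericytes, cDC2, plasmacytoid and mature dendritic cells and the cells labelled erythrocytes and M. In pericytes Cirbp was at 0.673, 1.48, 0.235 and 2.17 in the CS mice against 1.85, 1.56, 1.27 and 2.13 in the RA mice. The types given with values were picked after their values were seen, they rest on as few as 3 cells in a mouse, and no test was made.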
